A study of Arabidopsis thaliana and Lactuca sativa with 158 samples.

Results

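The comparison asks how strongly the CaMV 35S and the maize ubiquitin (ZmUBQ) promoter drive the same transgene in leaves of plants labelled as always red. It holds 15 of the 158 libraries of the series: 11 of Arabidopsis thaliana Col-0 carrying 35S::RUBY and 4 of Col-0 carrying ZmUBQ::RUBY. They were chosen by their labels alone, as leaf libraries titled Always Red, and lines named with T1 were left out. All leaves were 4 weeks old. The 35S leaves came from 6 transgenic lines (MK010, MK016, MK034, MK042, MK044 and MK045, with 1 or 2 leaf samples each) and the ZmUBQ leaves from 2 lines (MK054 and MK056, with 2 leaf samples each). Both groups are wild type apart from the transgene, and no untransformed leaf was set beside them. Samples of a line share one insertion history, and the labels do not say whether they came from separate plants, so the p-values speak for the spread among these samples alone.

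RUBY is a reporter that joins the coding sequences of betalain enzymes into one transcript, and its product turns tyrosine into a red pigment that is seen by eye. The CaMV 35S promoter comes from a plant virus and is active in most plant tissues, and transgenes driven by it are often silenced. The maize ubiquitin promoter comes from a housekeeping gene and is used mostly in cereals. Silencing of a transgene can act on its RNA, through RNA-dependent RNA polymerase and Dicer enzymes that make small RNAs, or on its transcription, through DNA methylation.

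RNA from 77 chosen targets was enriched by probe capture and sequenced as long cDNA by nanopore. The deposited values, here called signal, were found to be reads per 1000000 reads of the library, and library totals were 270169 to 1885542 reads in 35S (median 631376) and 502841 to 878223 reads in ZmUBQ (median 549468). Signal is a share, so a target that takes many reads lowers the signal of the others. In whole leaves fewer cells of a type and less RNA per cell cannot be told apart. The numbers at the start of the deposited sample names fall into 3 separate numberings: 4 of the 35S libraries are in a first, 7 in a second, and the 4 ZmUBQ libraries are alone in the third. What the numberings stand for is not given, so numbering and promoter cannot be told apart, and each result was also computed against either 35S numbering alone. The 35S numberings differed from each other in 39 of 59 tested targets (66.1%, limma with Benjamini-Hochberg adjustment), 34 of them higher in the second. Signal summed over all targets differed too, at 534740 to 652580 in the first, 738623 to 855264 in the second and 670823 to 715282 in ZmUBQ. Reads of overlapping targets count in each of them in these sums. The deposited tables of 35S line MK034 carry another colour code in their names than those of the other lines, so the main result is also given without that line. The label of leaf could not be checked, because markers of mature leaf are not among the targets.

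RUBY transcripts were more abundant in 35S leaves than in ZmUBQ leaves, by 2.84-fold, and every 35S leaf lay above every ZmUBQ leaf. RUBY signal in 35S leaves ran from 158775 over a median of 311283 to 424530. In ZmUBQ leaves it was 76925 and 85166 in line MK054 and 151105 and 121215 in line MK056. RUBY made up 31.0% of all reads in 35S leaves (15.9% to 42.5%) and 10.9% in ZmUBQ leaves (7.69% to 15.1%). The means were 309676 ± 84842 in 35S (SD, n = 11) and 108603 ± 34246 in ZmUBQ (SD, n = 4). The difference was 1.51 on the log2(signal + 1) scale (SE 0.26), with a two-sided exact permutation p of 0.000733, the smallest that the 1365 ways of choosing 4 of 15 libraries can give, and 0.00256 after adjustment over 7 RUBY measures. As a share of the signal summed over targets, RUBY averaged 42.5% ± 8.57 in 35S and 15.7% ± 4.91 in ZmUBQ. On that scale the groups overlapped, as the lowest 35S leaf, at 21.496%, lay just below the highest ZmUBQ leaf, at 21.4995%. With 1 mean per line the difference was 1.45, with an exact permutation p of 0.0357, the smallest that 6 lines against 2 can give, and 0.0833 after adjustment. Without line MK034 the difference was 1.61 (exact permutation, adjusted p = 0.00326).

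The spread among 35S lines was wide. Line means of RUBY signal ran from 189663 in MK010, which has 1 leaf, over 228810 in MK034, 273804 in MK016, 314277 in MK042 and 390792 in MK044 to 400702 in MK045. The ZmUBQ lines averaged 81046 in MK054 and 136160 in MK056, so the lowest 35S line lay above the highest ZmUBQ line. Leaves of the same line were close to each other in 6 of the 7 lines with 2 leaves, where the higher leaf had 1.02 to 1.25 times the signal of the lower. The exception was 35S line MK034, whose leaves had 298846 and 158775, a ratio of 1.88, and these are also the only leaves of a line that stand in different numberings. RUBY averaged 259029 ± 48286 in the first 35S numbering (SD, n = 4) and 338617 ± 90243 in the second (SD, n = 7), and these differed by less than the test could call (log2 difference 0.35, limma adjusted p = 0.365). Against ZmUBQ the difference was 1.29 for the first numbering alone (exact permutation p = 0.0286, the smallest that 4 against 4 can give, adjusted 0.0667) and 1.63 for the second alone (exact permutation, adjusted p = 0.0106).

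**Figure D1:**
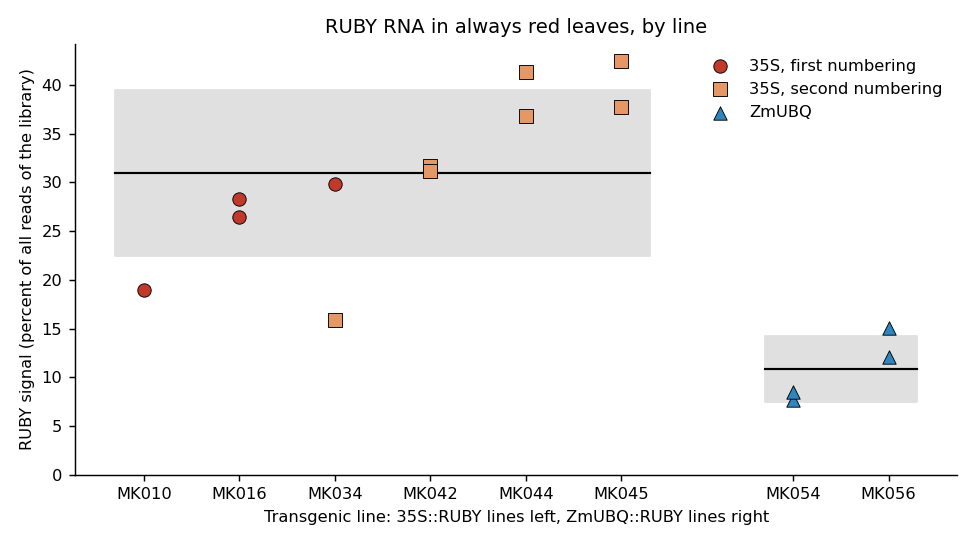
RUBY as a percent of all reads of the library, for each leaf of the 6 35S lines and the 2 ZmUBQ lines, with the mean of each promoter as a line and its SD as a band. The 35S leaves lie between 15.9% and 42.5%, all above the ZmUBQ leaves at 7.69% to 15.1%.

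The higher RUBY level in 35S leaves was present in polyadenylated RNA and in RNA without a mark of a poly(A) tail alike, and no change in the balance between them was called. Signal marked pA averaged 236981 ± 67975 in 35S and 83599 ± 25876 in ZmUBQ, a log2 difference of 1.49 (SE 0.26, exact permutation, adjusted p = 0.00342). One 35S leaf, MK034 leaf 2, with 113847, lay below the highest ZmUBQ leaf, with 115429. Signal not marked pA averaged 72120 ± 19157 in 35S and 24859 ± 8464 in ZmUBQ, a log2 difference of 1.55 (SE 0.28, exact permutation, adjusted p = 0.00256). Here the lowest 35S leaf, at 44250, stood above the highest ZmUBQ leaf, at 35608.

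The share of RUBY sense signal marked pA was 76.4% ± 3.18 in 35S (70.8% to 81.3%, n = 11) and 77.2% ± 1.74 in ZmUBQ (75.3% to 79.3%, n = 4). The difference was -0.84 percentage points (SE 1.29, exact permutation, adjusted p = 0.635), and the groups overlapped. Antisense RUBY RNA, a possible substrate of silencing, was a small part of the signal in both groups, at 0.206% ± 0.160 in 35S (0.0713% to 0.542%) and 0.123% ± 0.164 in ZmUBQ (0.0103% to 0.366%). The groups overlapped there too, with a difference of 0.08 points (SE 0.10, exact permutation, adjusted p = 0.532).

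**Figure D2:**
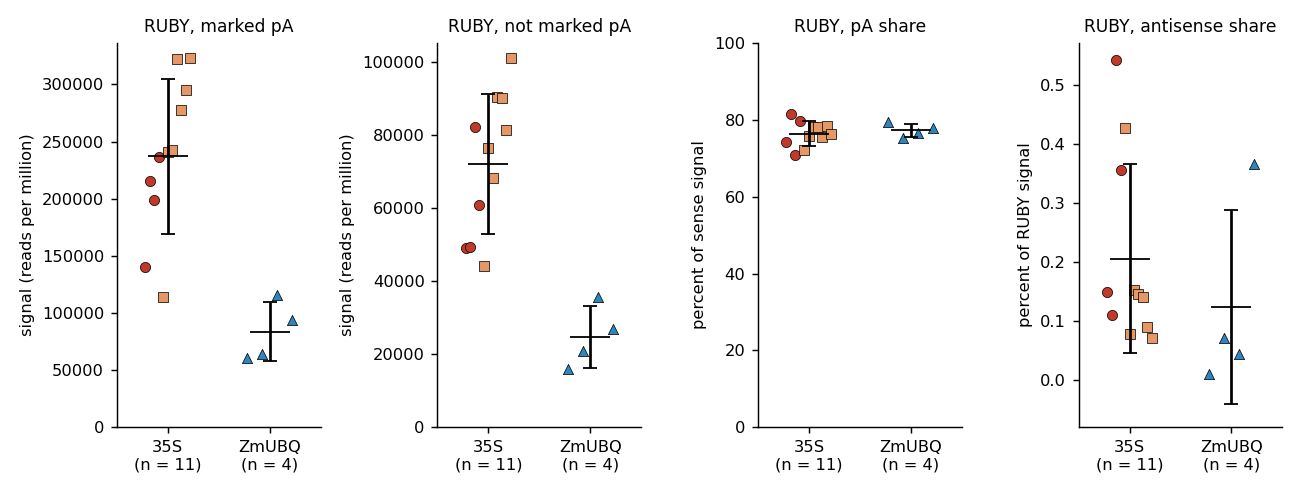
RUBY in 35S and ZmUBQ leaves as signal marked pA, signal not marked pA, the percent of sense signal marked pA, and the percent of signal on the antisense strand, with 1 point per library (circles and squares for the first and the second 35S numbering, triangles for ZmUBQ) and the mean ± SD. The first pair of panels shows 35S above ZmUBQ, and in the share panels the groups overlap.

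Full-length RUBY molecules, counted after collapsing by molecular identifier, were few in both groups. In 35S leaves they numbered from 0 over a median of 20 to 300, with 300 in MK016 leaf 2, 185 in MK034 leaf 1 and 0 in MK042 leaf 1. In ZmUBQ leaves they numbered 0 and 7 in line MK054 and 1 and 6 in line MK056. The groups overlapped, and signal of full-length molecules averaged 52.9 ± 68.2 in 35S and 5.10 ± 4.97 in ZmUBQ, a log2 difference of 2.46 (SE 1.06, exact permutation, adjusted p = 0.126). Each promoter has 1 leaf with none: without that of 35S the difference was 2.91 (exact permutation, adjusted p = 0.0315), and without that of ZmUBQ it was 1.78 (exact permutation, adjusted p = 0.370). Leaving out any of the other 13 leaves in turn gave no call. The ratio of full-length to all RUBY signal rests on these few molecules and was not called (log2 difference 0.95, exact permutation, adjusted p = 0.532).

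Other red leaves gave RUBY levels for comparison. In leaves titled Fully Red, RUBY averaged 374847 ± 95769 in 35S (180111 to 591756, n = 13) and 179432 ± 50891 in ZmUBQ (124696 to 291421, n = 9), with overlapping groups and a log2 difference of 1.06 (SE 0.24, limma adjusted p = 0.00089). The promoter difference in always red leaves exceeded that in fully red leaves by 0.45 (SE 0.41), which the interaction test did not call (limma adjusted p = 0.995). Always red 35S leaves of dcl1234, a mutant in the 4 Dicer-like genes, had 407441 to 576955 (n = 8), and Col-0 leaves with 35S::RUBY_3Q had 288424 to 476393 (n = 3). The values of these 2 always red groups all lay above the highest ZmUBQ always red leaf, at 151105.

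Among the plant's own targets few differed beyond the spread between leaves, and most of those that did were lower in 35S leaves. Of 61 tested targets, RUBY included, 11 were called (18.0%, limma adjusted p below 0.05), 3 of them higher in 35S (4.92%) and 8 lower (13.1%), while 15 had an unadjusted p below 0.05. The higher ones were RUBY, PDS1 and the transposable element target AT2G02190. The lower ones were SUR1, the overlapping pair AT1G06000 and AT1G06002, AXS2, UBP1B, AT5G59950, DCL4 and SADHU1-1. That pair has identical totals and is 1 measurement, but it enters the counts of all-read targets as 2. In 2 targets every 35S leaf lay above every ZmUBQ leaf (3.28%), and in 6 every ZmUBQ leaf lay above every 35S leaf (9.84%). The median difference of the 60 targets other than RUBY was -0.21, beside a RUBY that took more of the reads in 35S.

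Against the first 35S numbering alone 36 of 54 tested targets were called (66.7%), 5 higher and 31 lower, and against the second alone 15 of 58 (25.9%), 7 higher and 8 lower. All 11 were among both, in the same direction, but both share the 4 ZmUBQ libraries and make up the pool that gave the 11, so this is a description and not a separate test. Of the 11, 6 also differed between the 35S numberings. With line as a random effect 7 of the 11 were called, and AXS2, UBP1B, DCL4 and AT2G02190 were not. When the other targets were expressed relative to the reads outside RUBY, 4 calls remained, namely PDS1 higher and AT1G06000, AT1G06002 and SADHU1-1 lower in 35S. When each library was centred on the median of its other targets, 6 targets were called higher and 4 lower, 7 of them among the 11.

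**Figure D3:**
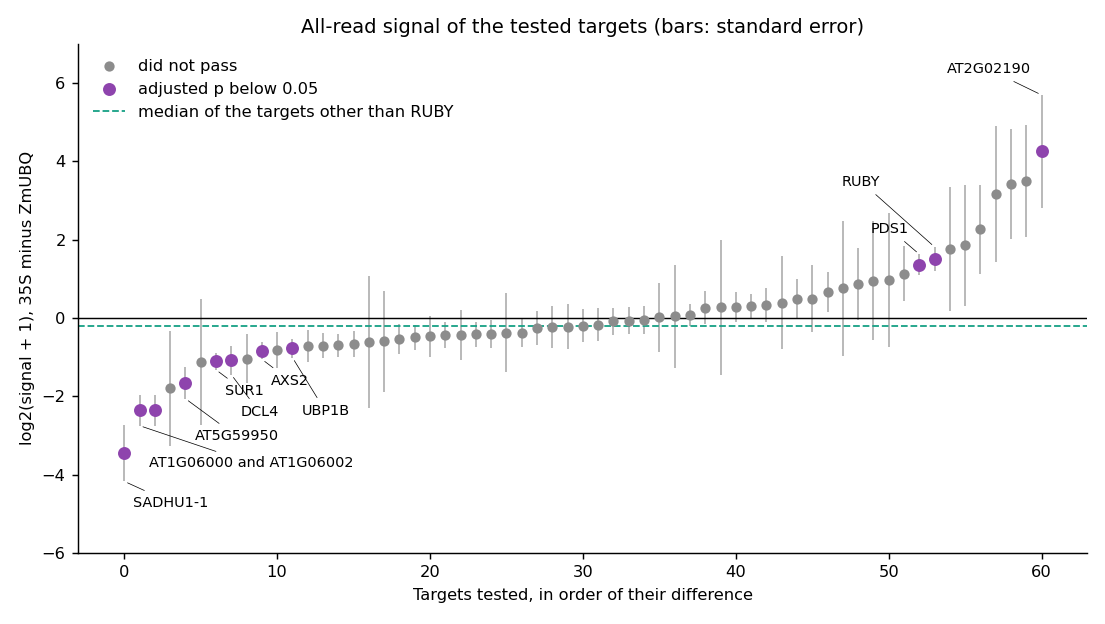
Difference of log2(signal + 1), 35S minus ZmUBQ, of the 61 tested targets in rising order, with standard errors as bars, called targets in colour and the median of the other targets as a dashed line. RUBY, PDS1 and AT2G02190 are the called targets above 0, and 8 called targets lie below 0.

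Of 3 targets taken here as linked to tyrosine, the amino acid that RUBY uses, 1 was called higher and 1 lower in 35S leaves. Over all tested targets 4.92% were called higher and 13.1% lower, and with 3 members the counts say nothing particular of the list. PDS1 encodes 4-hydroxyphenylpyruvate dioxygenase, which turns a breakdown product of tyrosine into the precursor of plastoquinone and tocopherols. Its signal in 35S leaves ran from 7452 over a median of 11329 to 20416, and in ZmUBQ leaves it was 4113, 4275, 3845 and 7121. Every 35S leaf was above every ZmUBQ leaf, with a log2 difference of 1.36 (SE 0.27, limma adjusted p = 0.000912), of 1.26 for the first numbering alone and 1.41 for the second. Full-length PDS1 molecules did not show this, with a signal of 20.8 over a median of 66.6 to 767 in 35S and of 101, 117, 92.6 and 244 in ZmUBQ and a difference of -0.19 (limma adjusted p = 0.918). They were called higher against ZmUBQ in the first numbering alone (1.95, limma adjusted p = 0.00289) and lower in the second (-1.41, limma adjusted p = 0.0122). In all reads of fully red leaves the PDS1 difference was 0.13 (limma adjusted p = 0.739), and the PDS1 difference between the colour classes, 1.22, was not called (limma adjusted p = 0.931). None of 72 targets passed that interaction test in limma, and 3 had an unadjusted p below 0.05.

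SUR1, a C-S lyase of glucosinolate synthesis, ran from 6529 over a median of 9236 to 11142 in 35S and was 26521, 20441, 16003 and 16221 in ZmUBQ. The groups did not overlap, and the difference was -1.11 (SE 0.21, limma adjusted p = 0.000762). With centring it was -0.56 and not called (limma adjusted p = 0.151). The gene of homogentisate solanesyltransferase, AT3G11945, which acts after PDS1 on the way to plastoquinone, had 7977 to 33324 in 35S and 23915 to 34416 in ZmUBQ, with overlapping groups and no call (-0.70, limma adjusted p = 0.134).

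Of the 8 targets of the silencing machinery, none was called higher and 1, DCL4, lower in 35S leaves, a share near the 13.1% called lower over all tested targets. Their median difference was -0.48, against -0.21 over all targets other than RUBY. That median depended on the numbering, at -1.23 for the first alone and 0.05 for the second, and was 0.07 with centring. DCL4, the Dicer that makes small interfering RNAs from double-stranded transcripts, ran from 1314 over a median of 3731 to 5685 in 35S and was 4821, 7093, 7318 and 7691 in ZmUBQ. The groups overlapped, with a difference of -1.08 (SE 0.37, limma adjusted p = 0.0433). The DCL4 call was lost when any of 10 of the 15 libraries was left out, held only without MK034 leaf 2, MK042 leaf 1, MK044 leaf 1 or 2 or MK045 leaf 1, and was lost relative to the reads outside RUBY (-0.70) and with line as a random effect (limma adjusted p = 0.131).

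The others of this list were not called. AGO1, which loads microRNAs and small interfering RNAs to cut target transcripts, had 5612 to 23091 in 35S and 16283 to 20006 in ZmUBQ (-0.50, limma adjusted p = 0.376). AGO4, which acts in RNA-directed DNA methylation, had 2230 to 5172 in 35S and 4597 to 6584 in ZmUBQ (-0.70, limma adjusted p = 0.104). RDR6, the polymerase that copies aberrant transcripts into double-stranded RNA, had 846 to 4338 in 35S and 2841 to 4558 in ZmUBQ (-0.82, limma adjusted p = 0.284). SGS3, the partner of RDR6, had 470 to 2738 in 35S and 393 to 1309 in ZmUBQ (0.49, limma adjusted p = 0.619). Of the rest, AGO6 was at 0.50, SDE3 at -0.47 and NRPD1B at -0.22 on the log2 scale. The groups overlapped for each of the genes given by range. The precursor TAS3, a source of trans-acting small interfering RNAs, had 27114 to 98960 in 35S and 50635 to 72449 in ZmUBQ, a difference of 0.09 (limma adjusted p = 0.843).

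The transcripts of the AT1G06000 locus were lower in 35S leaves, and this call held on the deposited scale, with centring, as a share of target signal and relative to the reads outside RUBY. AT1G06000 is annotated as protein-coding and AT1G06002 as a long non-coding RNA overlapping it, and their totals are identical, so they are 1 measurement by position. The AT1G06000 signal ran from 435 over a median of 1165 to 1629 in 35S and was 6909, 4417, 4414 and 6365 in ZmUBQ. No 35S leaf reached the lowest ZmUBQ leaf, and the difference was -2.36 (SE 0.39, limma adjusted p = 0.00018), at -1.82 for the first numbering alone and -2.67 for the second. Both strands were lower, with a mean sense signal of AT1G06000 of 569 in 35S and 2095 in ZmUBQ and of AT1G06002 of 563 in 35S and 3431 in ZmUBQ, where the sense strand of one is the antisense strand of the other.

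Of the 3 targets taken here as reference genes, 2 were called lower in 35S leaves and the median difference was -0.78. Over all tested targets 13.1% were called lower, and with 3 members the count says nothing particular of the list. AXS2, which makes the nucleotide sugars UDP-apiose and UDP-xylose for cell walls, ran from 35469 over a median of 48414 to 63243 in 35S and was 83158, 100722, 68893 and 84007 in ZmUBQ. The groups did not overlap (-0.84, SE 0.22, limma adjusted p = 0.00777), but the AXS2 difference was -0.46 relative to the reads outside RUBY and -0.28 with centring, and neither was called. Nor was it called with line as a random effect (limma adjusted p = 0.0566). UBP1B, an RNA-binding protein of stress granules, ran from 6573 over a median of 9906 to 14829 in 35S and was 20058, 17674, 12113 and 19093 in ZmUBQ. UBP1B groups overlapped (-0.78, SE 0.24, limma adjusted p = 0.0238), and the UBP1B call was lost relative to the reads outside RUBY (-0.40), with line as a random effect (limma adjusted p = 0.0760) and without MK054 leaf 1, MK054 leaf 2 or MK056 leaf 4. ALY1, short for ALWAYS EARLY 1, was not called (-0.23, limma adjusted p = 0.827).

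AT5G59950, a protein-coding target, was lower in 35S leaves in all reads and in full-length molecules. Its signal in all reads ran from 2575 over a median of 10903 to 14109 in 35S and was 30550.4, 23677, 22095 and 25258 in ZmUBQ, without overlap. The difference was -1.66 (SE 0.41, limma adjusted p = 0.00481), at -2.70 for the first numbering alone and -1.06 for the second. In full-length molecules AT5G59950 averaged 94.1 ± 35.3 in 35S and 691 ± 87.5 in ZmUBQ, a difference of -2.94 (SE 0.28, limma adjusted p = 3.97e-07). The full-length tables gave 3 calls among 36 tested targets (8.33%), all lower in 35S, while 7 had an unadjusted p below 0.05. Besides AT5G59950 they were AT1G06000 (-2.46, limma adjusted p = 0.0415) and AT1G06002 (-2.30, limma adjusted p = 0.0172). Against the first 35S numbering alone the full-length tables gave 2 higher and 2 lower, and against the second 1 higher and 7 lower. The full-length call of AT1G06000 held in 6 of the 15 fits that leave out a library, namely those without a 35S leaf of the first numbering, MK044 leaf 2 or MK045 leaf 2, and was lost with line as a random effect (limma adjusted p = 0.0770). That of AT1G06002 was lost without MK054 leaf 1 or MK056 leaf 4, and that of AT5G59950 held in all 15. When the library of line MK034_T1 was added to the 35S group, none of the 3 was called in limma (5 targets at an unadjusted p below 0.05), AT5G59950 included.

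**Figure D4:**
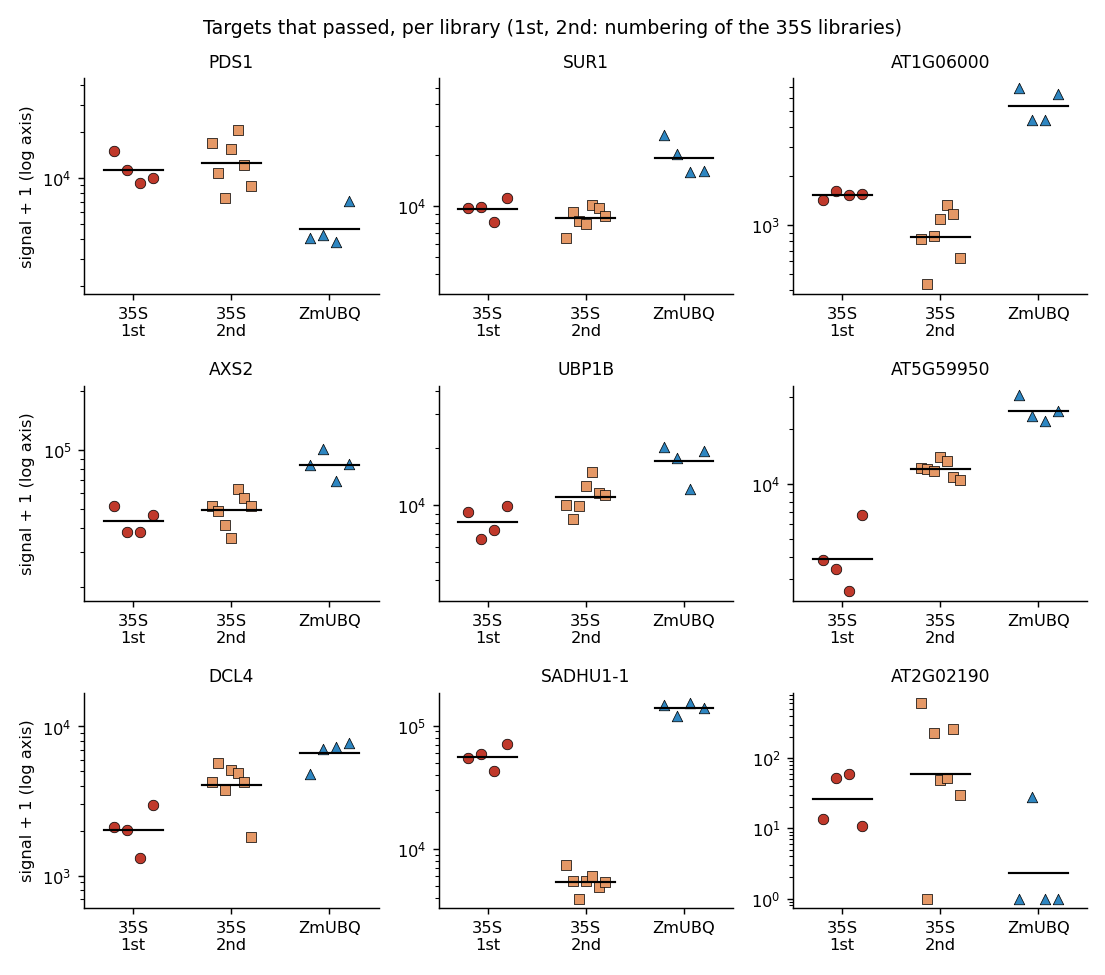
Signal of called targets in each library on a log axis, in 35S libraries of the first numbering, 35S libraries of the second numbering and ZmUBQ libraries, with the geometric mean of signal + 1 as a line. SADHU1-1 lies at 42981 to 71569 in the first 35S numbering, at 3957 to 7355 in the second and at 119387 to 153614 in ZmUBQ.

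Of the tested transposable element targets 7 of 8 methylated and 5 of 7 unmethylated ones had a positive difference. Of all these element targets 1 was called higher and 1 lower, beside 4.92% higher and 13.1% lower over all tested targets. These 7 and 5 are themselves among the 25 positive ones of the 60 targets other than RUBY. The 5 are all elements of the single AT5G52070 locus. Targets above 0 in 35S leaves alone could enter, as AT5TE76220 and AT5G17125 did, so these counts of direction are no test. SADHU1-1, a retroelement of the Sadhu family that is annotated as a pseudogene and stands among the unmethylated elements, took up to 15.4% of the reads of a ZmUBQ library. Its signal ran from 3957 over a median of 5991 to 71569 in 35S and was 147237, 119387, 153614 and 138621 in ZmUBQ, without overlap. The difference was -3.46 (SE 0.72, limma adjusted p = 0.000988), but its size followed the numbering, at -1.31 for the first alone and -4.68 for the second. Leaves of the single line MK034 had SADHU1-1 signals of 71569 in the first numbering and 7355 in the second. Of the 7 unmethylated element targets SADHU1-1 alone was called, and their median difference was 0.27, at -1.28 for the first numbering alone and 0.71 for the second.

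Of the 19 methylated element targets 8 had enough libraries above 0 to be tested, which the 11 35S libraries could bring about on their own, and their median difference was 1.81, at 0.42 for the first numbering alone and 2.56 for the second. Only AT2G02190 was called among them. Its signal in 35S ran from 0 over a median of 51.6 to 614, and in ZmUBQ it was 0, 27.3, 0 and 0, from 709 reads in 35S and 24 in ZmUBQ, and those 24 were all antisense. The groups overlapped, and the difference of 4.26 (SE 1.44, limma adjusted p = 0.0433) was called in 4 of the 15 fits that leave out a library, those without MK010 leaf 1, MK034 leaf 1, MK042 leaf 1 or MK054 leaf 2. With line as a random effect it was not called (limma adjusted p = 0.252). Of 12 phased siRNA targets none was called, with a median difference of -0.32, at -1.16 for the first numbering alone, 0.15 for the second and 0.24 with centring. Of 7 tested loci of RNA-directed DNA methylation none was called, with a median of 0.01, at -0.93 for the first numbering alone, -0.02 for the second and 0.57 with centring. Centring called 1 target of each of these classes higher, AT5G38850 (0.84) and AT1G62920 (0.86), chosen here after their values were seen, and limma without it gave 15 targets over all classes at an unadjusted p below 0.05.

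Neither of the 2 tested genes of growth and flowering was called. AGL20, also known as SOC1, which promotes flowering, had 23622 over a median of 91343 to 153830 in 35S and 64730.2, 47488, 30857 and 35010 in ZmUBQ, with overlap and a difference of 0.67 (limma adjusted p = 0.487). Against the 35S numberings taken alone AGL20 was called in opposite directions, at -0.73 for the first (limma adjusted p = 0.00698) and 1.47 for the second (limma adjusted p = 2.8e-05), and with centring it was called higher (1.23, limma adjusted p = 0.0263). LBD41, a LOB domain protein, had 251 to 4476 in 35S and 730 to 2814 in ZmUBQ (-0.43, limma adjusted p = 0.777), again with overlap. GRF5, which promotes leaf cell proliferation, was too low to test, with 47 reads in all 35S leaves and 0 in the ZmUBQ leaves. The construct targets GUS and eGFP, which are not part of either transgene by its name, were low: GUS had 0 to 1507 in 35S and 0 to 77.6 in ZmUBQ (0.75, limma adjusted p = 0.827), and eGFP had 0 to 10.6 in 35S and 0 in every ZmUBQ leaf. The 1507 was MK016 leaf 1 alone, and the next highest 35S leaf had 118. Signal of eGFP was above 0 only in the 4 libraries of the first numbering, at 1.95 to 10.6. Both GUS and eGFP were lower in the second 35S numbering than in the first (GUS -4.15, eGFP -2.39, limma adjusted p = 0.0216 for each). Libraries of the first had 1344864 to 1885542 reads and those of the second 270169 to 695414. In the second, 1 read was worth a signal of 1.44 to 3.70, and the part of depth in these differences was not tested.

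Several endogenous transcripts carried a larger share of polyadenylated RNA in 35S leaves, whereas no such difference was called for RUBY. Over 37 targets with enough sense reads, 29 had a higher pA share in 35S, the median difference was 4.32 percentage points, and 4 were called (10.8%, limma), all higher, while 12 had an unadjusted p below 0.05. The pA share of SUR1 was 59.7% ± 7.30 in 35S and 40.4% ± 5.08 in ZmUBQ (19.4 points, limma adjusted p = 0.00647). That of PDS1 was 60.7% ± 6.85 in 35S and 45.2% ± 6.63 in ZmUBQ (15.5 points, limma adjusted p = 0.0157). AGO1 had 31.5% ± 6.66 in 35S and 16.3% ± 6.53 in ZmUBQ (15.2 points, limma adjusted p = 0.0157). The pentatricopeptide repeat gene AT1G63130 had 22.9% ± 6.33 in 35S and 10.1% ± 6.01 in ZmUBQ (12.8 points, limma adjusted p = 0.0321). Against the first 35S numbering alone 33 of the 37 shares were higher in 35S, with a median difference of 9.22 points, and against the second 21 of 37, with 2.06 points. Each of the 4 called differences had the same direction against either 35S numbering. Both numberings share the 4 ZmUBQ libraries and make up the pool that gave these calls, so this is a description and not a separate test. The pA share test was added after the tables had been seen and was not run with line as a random effect.

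**Figure D5:**
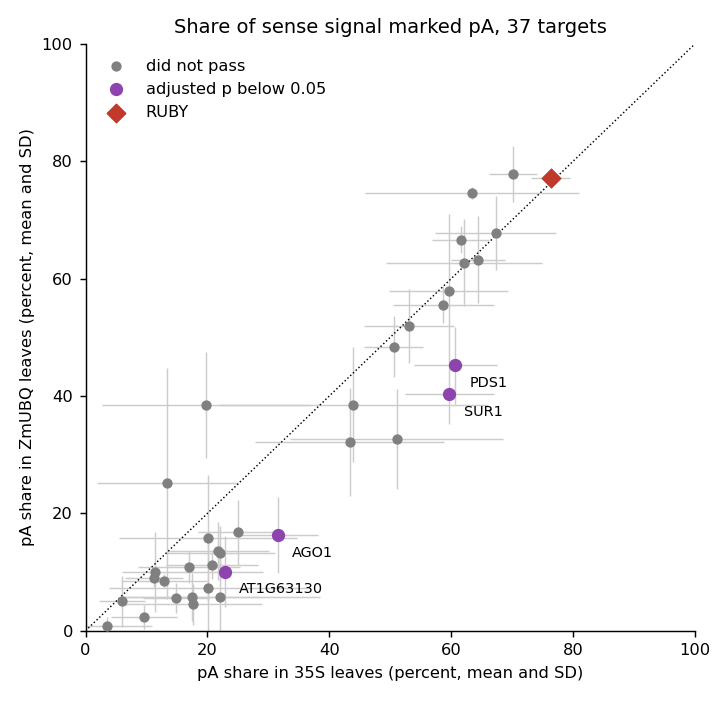
Percent of sense signal marked pA for 37 targets, with the mean and SD of 35S leaves on the horizontal axis and of ZmUBQ leaves on the vertical axis. Of the 37 targets 29 lie on the side of a higher share in 35S, SUR1 at 59.7% in 35S and 40.4% in ZmUBQ among them, and RUBY lies at 76.4% in 35S and 77.2% in ZmUBQ.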

How the data were processed

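Per the labels' protocols, TRIzol-extracted total RNA received an adapter at its 3' ends, was copied into cDNA by template switching, barcoded and pooled, and the pool was captured with biotinylated probes before nanopore sequencing. The submitters' processing notes name the build TAIR10 and the tool cutadapt, without versions; the aligner and the counter are not given in the sources used here. The authors deposited normalised signal per target, which per the file headers is split by strand and by a pA mark, for all reads and for full-length reads collapsed by molecular identifier. From these deposited values signal was inferred to be reads per 1000000 of the library total: 2219 of 2219 values of the 15 libraries were whole multiples of 1 step per library, within a rounding of 0.005. The tables were too short for a count model by the rule used here, so none was run. Overlapping targets share reads, and full-length targets that are not listed (38 to 53 of 77 per library) were taken as 0. No 2 of the 15 libraries were identical.

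Targets above 0 in at least 4 libraries were compared on the log2(signal + 1) scale with limma 3.58.1 (R 4.3.3), using empirical Bayes moderation, a trend on the mean and Benjamini-Hochberg adjustment, called at an adjusted p below 0.05; fold changes on this scale understate those of low targets. The limma script was tested on simulated data. RUBY was compared with two-sided exact permutation tests in Python 3.11.15 (numpy 2.4.6, pandas 2.3.3), adjusted over 7 measures. The pA share was fitted for targets with at least 20 sense reads in each of the 15 libraries. Symbols were taken from the RefSeq gene table (46 of 46 locus tags matched), with no coordinates, since its assembly differs in name from the build of the files. The named targets are the construct targets, every called target and up to 4 of the highest from each gene list. The members and lists were chosen with earlier results of these data known. Alternatives were pseudocounts of 0.5 and 10, a filter on low values, centring, line means, line as a random effect, and leaving out each library in turn.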

Additional observations from a re-analysis of the deposited data

Results flagged for a closer look

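In the ZmUBQ leaves 2 values stood far from the other 3 of their group, out of 45 groups of samples examined, where chance picks about 1 in 20. The transposable element target AT2G02190 had a signal of 27.3 in MK054 leaf 2 and 0 in the other 3 ZmUBQ leaves. The element target AT5TE76215 had 1151 in MK056 leaf 2 and 2351, 2186 and 2409 in the other ZmUBQ leaves.

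One leaf library outside the comparison, titled Col-0 Green, carries a label that names 35S::RUBY. Its GUS signal was 609741, which is 61.0% of its reads, whereas the highest GUS signal in the 15 always red leaves was 1507. Its RUBY signal was 295 (0.0295% of its reads), above the 1.17 that 3 reads are worth there and far below the lowest always red leaf. This library entered no comparison, and where its GUS and RUBY reads come from was not tested.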

How the results depend on the processing

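The RUBY difference in all reads kept its direction under every alternative run, and with centring it was 2.06. RUBY in all reads, marked pA and not marked pA was no longer past the threshold with line means (1.45, 1.43 and 1.51) and with the first 35S numbering alone (1.29, 1.27 and 1.31), where the smallest possible exact p cannot pass the adjustment as it stands. Leaving out each library in turn gave 1.36 to 1.68 for all reads, 1.36 to 1.66 marked pA, 1.36 to 1.74 not marked pA and 1.78 to 2.95 for full-length reads. The full-length ratio turned to -0.054 with a pseudocount of 10. Calls in all reads numbered 7 with line as a random effect (correlation 0.45), 5 with line means, 36 with the first numbering, 4 per read outside RUBY and 8 to 11 without each library in turn. With centring 6 were higher and 4 lower, against 3 higher and 8 lower. Full-length calls numbered 1 with centring, 1 with line means, 8 with the second numbering, 1 to 3 without each library in turn, and 0 with MK034_T1 (limma, 5 at an unadjusted p below 0.05); the cause was not tested. None of the targets called in all reads turned its direction there, whereas these uncalled ones did. With centring, AGO1 was at 0.058, AT1G63130 0.14, AT1G63150 0.020, AT2G02210 0.17, LBD41 0.13, ALY1 0.33, AT5G43740 0.48, AT5G52070 0.38, AT5TE63500 0.50 and AT5TE63505 0.47. With the second numbering, AT1G63130 was at 0.053, AT2G02210 0.92, LBD41 0.28, TAS3 -0.021, ALY1 0.18, AT5G43740 0.40, AT5G52070 0.46, AT5TE63500 0.41, AT5TE63505 0.38 and GUS -0.75. With the first, AT1G62920 was at -0.31, AGL20 -0.73, AT4G07967 -2.73, AT5TE76210 -0.45, AT5TE76215 -0.36 and AT5TE85500 -1.55. Per read outside RUBY, ALY1 was at 0.15, AT5G43740 0.31, AT5G52070 0.21, AT5TE63500 0.32 and AT5TE63505 0.29. Without line MK034, TAS3 was at -0.00399 and AT5TE85500 -0.18. With MK034_T1, TAS3 was at -0.049, AT4G07967 -0.26, AT5TE76210 -0.68 and AT5TE76215 -0.61. AT4G07967 was at -0.00155 with a pseudocount of 0.5, and AT4G07967 and AT5TE85500 were at -0.00221 and -0.13 with line as a random effect, -0.049 and -0.29 with line means, and -0.054 and -0.043 as a share of target signal. Leaving out each library in turn gave AT4G07967 -0.69 to 0.57, AT5TE85500 -0.21 to 0.38, ALY1 -0.49 to 0.10, AT5G43740 -0.17 to 0.040, AT5TE63500 -0.16 to 0.052, AT5TE63505 -0.19 to 0.024, AT5TE76210 -0.025 to 0.41 and GUS -0.41 to 1.69. The alternatives by numbering, by share of target signal and per read outside RUBY were chosen after seeing the data. Numbering as a term and comparisons within a numbering were not run, because no numbering holds both promoters, and the antisense share has no value with MK034_T1, whose table holds the sense strand only. No paired analysis was possible because replicate numbers count leaves within a line and the promoters share no line.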

Other observations

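Leaves titled Fully Red (35S n = 13, ZmUBQ n = 9) gave 14 calls among 72 tested targets (19.4%, limma), of which 8 were among the 11 of always red leaves, in the same direction. The fully red leaves share 4 35S lines and both ZmUBQ lines with the always red ones, so the insertions are in part the same. The fully red libraries were not assigned to a numbering here. Whether numbering and promoter can be told apart among the fully red leaves was therefore not tested. Those of 35S lines MK025, MK040, MK041 and MK043 and of ZmUBQ line MK055 are from lines without an always red leaf here. The 8 were RUBY, SUR1, AT1G06000, AT1G06002, UBP1B, AT5G59950, DCL4 and SADHU1-1. SADHU1-1 was lower in fully red 35S leaves by a log2 difference of -3.74 (limma adjusted p = 5.65e-08), AT1G06000 by -2.32 (limma adjusted p = 9.01e-07) and SUR1 by -1.49 (limma adjusted p = 1.07e-05).

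AGO1, RDR6 and SGS3 of the silencing machinery, not called in always red leaves, were called lower in fully red 35S leaves. DCL4 of this list, called lower in always red leaves, was called lower in fully red ones too (-1.15, limma adjusted p = 0.0052). Every fully red call other than RUBY was lower in 35S, AT3G11945 and AT3G12210 among them. Over all targets 14 of 72 were called (19.4%), and whether the list was called more often than other targets was not tested. Of the same list AGO4 (-0.68), AGO6 (-0.68), SDE3 (-1.19) and NRPD1B (-0.0011) were not called. Fully red leaves were not fitted with centring or relative to the reads outside RUBY. AGO1 had a difference of -1.02 (limma adjusted p = 0.0047), RDR6 of -1.03 (limma adjusted p = 0.0229) and SGS3, the partner of RDR6, of -1.24 (limma adjusted p = 0.0319). For SGS3 the always red difference was 0.49, and the change of 1.73 between the colour classes was not called (limma interaction, adjusted p = 0.721). For AGO1 and RDR6 it was 0.53 and 0.21, with an adjusted p of 0.995 for each in limma's interaction test.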
